A study of Homo sapiens with 6 samples.

Results

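The 10 genes described here are imprinted growth genes and long non-coding RNAs: H19, IGF2, MEG3, DLK1, PEG3, MEST, NNAT, CDKN1C, PLAGL1 and GRB10. They were taken by symbol from the transcript tables, and the TPM (a read level per transcript, scaled for its length and for the depth of the library) of all transcripts under 1 Ensembl gene identifier was summed. They are 10 of 36532 genes in the tables. Total RNA came from 4 AT/RT (atypical teratoid rhabdoid tumor) cell lines bought from ATCC, grown without serum in DMEM:F12 with EGF, FGF and B-27. CHLA 02 and CHLA 05 were each sequenced as a single library, while 2 technical replicates were made of CHLA 04 and likewise of CHLA 06. According to the study, all of these tumor lines lack SMARCB1, and the last-named line belongs to another group of AT/RT than the rest, which are classed as neurogenic. The libraries held 10265899 to 20520229 reads on transcripts, so that 1 read per kilobase of transcript was worth 0.117 to 0.236 TPM. A cell line stood for 1 biological sample, so no test between cell lines was possible, the SD given here is the spread between technical replicates, and nothing measures how far a second culture would have differed. No control cells and no cells with SMARCB1 restored are among the 6 libraries.

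An imprinted gene is transcribed mostly from the copy inherited from 1 parent, because DNA methylation set in the egg or the sperm marks the copies differently. Many imprinted genes act on growth of the embryo and the placenta, and those active from the paternal copy (here IGF2, DLK1, PEG3, MEST, NNAT and PLAGL1) often lie in clusters with genes active from the maternal copy (H19, MEG3, CDKN1C and, depending on tissue and isoform, GRB10). A cluster is often read as a pair, with a growth factor or membrane protein on one copy and a long non-coding RNA on the other, as in IGF2 and H19 on chromosome 11 and DLK1 and MEG3 on chromosome 14. Which parental copy the RNA came from was not measured here.

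CHLA 02 stood apart in a way that touches every comparison with it. None of the 36532 genes was at 10 TPM or more in CHLA 02 and under 1 TPM in the other 3 cell lines, and CHLA 04 and CHLA 06 had 1 such gene each, against 73 in CHLA 05. Of 196 genes at 10 TPM or more in CHLA 06 and under 1 TPM in CHLA 04 and CHLA 05, 195 reached 1 TPM in CHLA 02, at a median of 57.1% of the CHLA 06 level. Of 36 genes that met the same limits for CHLA 04, 35 reached 1 TPM in CHLA 02, at a median of 47.1% of the CHLA 04 level, whereas only 3 of 76 genes restricted to CHLA 05 did. Of the 8 members with a mean of at least 1 TPM over the 4 cell lines, 6 differed 4-fold or more between CHLA 04 and CHLA 06. All 6 lay between these 2 levels in CHLA 02. Of all 1833 genes that differed so, 93.3% lay between both levels in CHLA 02, and 67.8% did in CHLA 05. What placed CHLA 02 between those lines was not tested, and the comparisons that leave it out are given beside the others. As for the labels, VIM was at 4629 TPM or more in every library, PAX6 was at 15.8 TPM in CHLA 02 and higher in CHLA 04 and CHLA 05 but at 0.770 TPM in CHLA 06, and SOX2 did not exceed 4.03 TPM in any line. MSI1 was likewise lowest in CHLA 06 (8.23 TPM, against 109 TPM or more), NES was between 7.86 and 27.6 TPM, and the more abundant identifier of TUBB3 was highest in CHLA 06 (383 TPM, against 205 to 264 TPM). Of 6 markers of the mesenchyme (COL1A1, COL1A2, COL3A1, DCN, LUM and POSTN), 5 reached 1 TPM in CHLA 02 as in CHLA 06, whereas CHLA 04 had 3 and CHLA 05 had 4 at that level. Their sum was 1262 TPM in CHLA 02 and 1559 TPM in CHLA 06 against 14.5 TPM in CHLA 04 and 46.7 TPM in CHLA 05, with LUM listed at 0 in CHLA 04 and DCN in CHLA 05. COL1A1 and COL3A1 made up most of that sum, whereas COL1A2 and POSTN were highest in CHLA 05 (7.12 and 18.9 TPM) and COL1A2 was at 0.0129 TPM in CHLA 06. Lists of 4 markers each for myeloid, trophoblast, hepatocyte and skeletal muscle cells had no marker at 1 TPM in any line, and AIF1, CGA, CSH1 and TTR were listed at 0. Of 4 endothelial markers, VWF was at 2.88 TPM in CHLA 04 and CLDN5 at 4.91 TPM in CHLA 05. In RNA of whole cultures, fewer cells of a kind and less RNA per cell cannot be told apart.

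The promoter sequences show which starts the transcripts below belong to and how rich in CpG, the site of imprinting methylation, they are. RefSeq promoter windows (GRCh38.p14) were matched for 5 of the 10 members, H19, MEG3, MEST, PLAGL1 and GRB10. The 250 bases before a start are printed 5′ to 3′ on the strand of the gene, with each CpG in capitals, for 2 of the promoter regions of MEST and for the CpG-rich starts of GRB10 and PLAGL1, whose levels set the cell lines apart, and for MEG3, whose level did so least among the members above 1 TPM. A further MEST window (chr7:130491079-130491328), with 11 CpGs, is not printed.
MEST, upstream promoter (chr7:130486097-130486346, plus strand): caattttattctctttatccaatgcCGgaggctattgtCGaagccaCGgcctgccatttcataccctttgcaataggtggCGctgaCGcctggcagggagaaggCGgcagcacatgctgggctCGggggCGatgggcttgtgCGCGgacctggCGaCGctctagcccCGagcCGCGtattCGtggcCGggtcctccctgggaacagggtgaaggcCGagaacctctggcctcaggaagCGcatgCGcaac
MEST, downstream promoter (chr7:130491808-130492057, plus strand): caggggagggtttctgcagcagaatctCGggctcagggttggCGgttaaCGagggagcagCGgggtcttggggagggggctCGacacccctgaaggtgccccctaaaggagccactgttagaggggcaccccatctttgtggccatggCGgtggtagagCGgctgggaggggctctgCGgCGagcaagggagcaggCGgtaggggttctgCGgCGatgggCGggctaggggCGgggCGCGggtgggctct
GRB10, first promoter (chr7:50793454-50793703, minus strand): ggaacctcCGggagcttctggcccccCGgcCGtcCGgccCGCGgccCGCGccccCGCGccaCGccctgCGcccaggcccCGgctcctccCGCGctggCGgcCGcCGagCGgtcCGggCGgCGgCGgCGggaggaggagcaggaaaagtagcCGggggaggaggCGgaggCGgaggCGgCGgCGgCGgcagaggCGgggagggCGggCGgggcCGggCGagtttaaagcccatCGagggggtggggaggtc
PLAGL1, internal promoter (chr6:144008260-144008509, minus strand): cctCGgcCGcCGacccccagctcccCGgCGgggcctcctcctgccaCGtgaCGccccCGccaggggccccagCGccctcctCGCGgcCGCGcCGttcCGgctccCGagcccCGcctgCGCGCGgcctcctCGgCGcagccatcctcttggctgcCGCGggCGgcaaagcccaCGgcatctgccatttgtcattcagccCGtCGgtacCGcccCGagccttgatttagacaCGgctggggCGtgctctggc
MEG3 (chr14:100825858-100826107, plus strand): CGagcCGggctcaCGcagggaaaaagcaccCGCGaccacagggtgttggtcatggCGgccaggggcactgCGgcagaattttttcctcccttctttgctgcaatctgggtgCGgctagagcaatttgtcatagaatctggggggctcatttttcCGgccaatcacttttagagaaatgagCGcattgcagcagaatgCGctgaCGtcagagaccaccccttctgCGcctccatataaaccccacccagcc
These windows held 20, 16, 37, 32 and 13 CpGs, in the order printed, and the median over 35116 RefSeq windows of the same length was 11. The GRB10 and PLAGL1 windows were chosen as CpG-rich ones, above 96.0% and 90.5% of all windows, and other windows of the same genes held as few as 2 and 1 CpGs. The letters TGCCGC, the core of the motif that the imprint-protecting factor ZFP57 is known to bind, were searched on both strands. They occurred 2 times in the PLAGL1 window and 1 time each in the windows of GRB10, MEG3 and the upstream promoter of MEST, but not before the downstream start of MEST. Over all 19 windows of these members, overlapping ones included, 6 held the letters. Of all RefSeq windows, 12.7% held these letters. ZFP57 itself was at 0 TPM in CHLA 02, CHLA 04 and CHLA 05 and at 0.0771 TPM in CHLA 06.

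3 of the members also carry microRNAs on their own strand, printed here with the seed (bases 2 to 8) in capitals because a host transcript is the precursor of its microRNA. The libraries did not measure the microRNAs themselves.
miR-335-5p, within MEST: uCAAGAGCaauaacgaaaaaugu
miR-675-5p, within H19: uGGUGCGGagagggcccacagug
miR-770-5p, within MEG3: uCCAGUACcacgugucagggcca
No seed was shared among these.

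**Figure D1:**
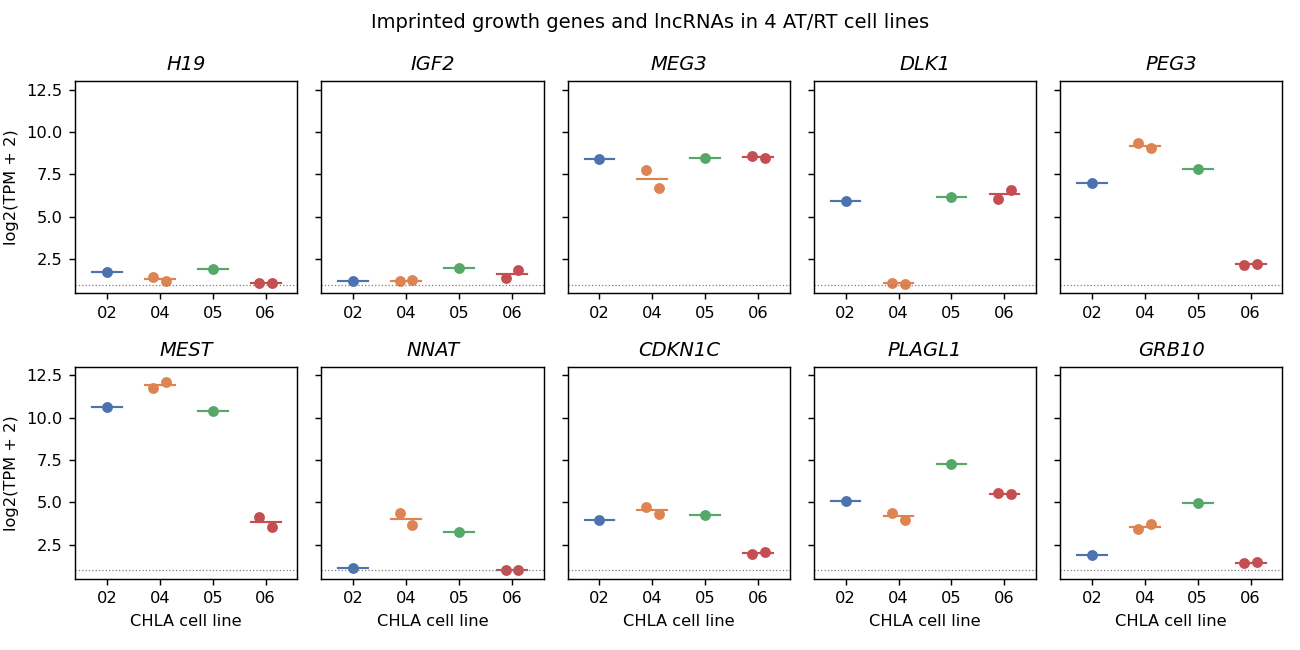
Level of each of the 10 members in the 6 libraries. The y axis is log2(TPM + 2) and the x axis is the CHLA cell line; each point is a library, each short line the mean of a cell line, and the dotted line marks 0 TPM. MEST, PEG3 and CDKN1C are lowest in CHLA 06, DLK1 is at the dotted line in CHLA 04 alone, and H19 and IGF2 stay near it in all 4 lines.

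MEST (ENSG00000106484, chr7:130486171-130506296, plus strand, GRCh38 as all gene positions here) encodes a putative hydrolase of the endoplasmic reticulum and was the most abundant member in CHLA 02, CHLA 04 and CHLA 05. Its level was 1556 TPM in CHLA 02, 3448 and 4317 TPM in the replicates of CHLA 04, 1335 TPM in CHLA 05, and 15.7 and 9.96 TPM in those of CHLA 06. In CHLA 04 it stood at the 99.96 and 99.97 percentiles of the genes detected in the library, and in CHLA 06 at the 52.7 and 47.8 percentiles. The mean of CHLA 04 (3883 ± 614 TPM, SD, n = 2) was 302-fold that of CHLA 06 (12.8 ± 4.09 TPM, SD, n = 2), a difference of 8.05 in log2(TPM + 2), against gaps between technical replicates of 0.32 and 0.57 on the same scale. The CHLA 06 level still rested on 193 and 130 reads. No library of the other 3 lines overlapped with CHLA 06. The part that the neural and mesenchymal markers given above, which also set CHLA 06 apart from CHLA 04 and CHLA 05, had in this difference was not tested.

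All 18 annotated MEST transcripts reached 1 TPM in some library, and the low level in CHLA 06 was not that of 1 start. Transcripts that begin within or just after the upstream window printed above (chr7:130486171-130486354) summed to 494 TPM in CHLA 02, 351 and 673 TPM in CHLA 04, 208 TPM in CHLA 05, and 5.40 and 2.99 TPM in CHLA 06. Those that begin after the downstream window (chr7:130492093-130492472) summed to 302 TPM in CHLA 02, 1172 and 1895 TPM in CHLA 04, 309 TPM in CHLA 05, and 3.35 and 2.12 TPM in CHLA 06. A start group between these (chr7:130491329-130491333) summed to 188 TPM in CHLA 02, 510 and 590 TPM in CHLA 04, and 2.06 and 0.934 TPM in CHLA 06. In CHLA 05 it summed to 339 TPM (25.4% of MEST), the most of any start group there. As a share of MEST, the upstream start made up 31.7% in CHLA 02 and 30.0% to 34.3% in CHLA 06, but 10.2% to 15.6% in CHLA 04 and CHLA 05. Most of the CHLA 04 excess in downstream transcripts was in ENST00000437945, with 858 and 1574 TPM there and 73.9 TPM in CHLA 05. The deposited values divide reads shared by overlapping transcripts among them, so shares of starts are less certain than gene sums. MESTIT1, an antisense transcript at chr7:130486042-130491033 that ends near the upstream start, did not exceed a line mean of 0.617 TPM.

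PEG3 (ENSG00000198300, chr19:56810083-56840728, minus strand), a zinc finger transcription factor gene, had the same order of cell lines apart from an exchange of CHLA 02 and CHLA 05. It was at 126 TPM in CHLA 02, 642 and 525 TPM in CHLA 04, 227 TPM in CHLA 05, and 2.48 and 2.73 TPM in CHLA 06. CHLA 04 was 224-fold above CHLA 06 (583 ± 82.8 against 2.60 ± 0.172 TPM, SD, n = 2 each), and the libraries of CHLA 06 were below all others. From 86.0% to 91.6% of PEG3 in CHLA 02, CHLA 04 and CHLA 05 came from transcripts that begin at the first start group (chr19:56840662-56840728, minus strand), against 77.2% and 80.7% in CHLA 06. ZIM2, a neighbouring zinc finger gene that shares its start and exons with PEG3, had the same pattern, with 93.3 TPM in CHLA 02, 481 and 261 TPM in CHLA 04, 123 TPM in CHLA 05, and 0.483 and 0.781 TPM in CHLA 06. Reads in shared exons cannot be told apart between PEG3 and ZIM2, so ZIM2 is no separate support.

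NNAT (ENSG00000053438, chr20:37521215-37523693, plus strand) encodes the small membrane proteolipid neuronatin, and only CHLA 04 and CHLA 05 had more than 2 reads of it. It had 2 reads in CHLA 02 (0.231 TPM), 100 and 93 reads in CHLA 04 (18.5 and 10.8 TPM), 62 reads in CHLA 05 (7.56 TPM), and 0 reads in both libraries of CHLA 06. A limit of 3 reads per library on the longest transcript, or 0.285 TPM, was set for the count of 0 in CHLA 06. NNAT was 51.4-fold above that limit in CHLA 04 and 26.5-fold above it in CHLA 05. These ratios leave out the counting error of CHLA 04 and CHLA 05. CHLA 04 was 63.5-fold above CHLA 02, with an exact Poisson interval at the 95% level of 17.6 to 525 from the 2 reads of CHLA 02. BLCAP, which surrounds NNAT on the opposite strand, lay between 48.2 and 64.0 TPM in the 4 lines, and was highest in CHLA 06, where NNAT had no read. Whether the counting used strand is not given in the sources used here.

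CDKN1C, PLAGL1 and GRB10 are known as restraints on growth. CDKN1C (ENSG00000129757, chr11:2883213-2885881, minus strand) encodes the cyclin-dependent kinase inhibitor p57KIP2, which halts the cell cycle. Its level was 13.6 TPM in CHLA 02, 24.5 and 18.1 TPM in CHLA 04, 17.0 TPM in CHLA 05, and 1.82 and 2.30 TPM in CHLA 06. CHLA 02, CHLA 04 and CHLA 05 were within 0.57 of each other in log2(TPM + 2), close to the gap of 0.40 between the replicates of CHLA 04. CHLA 06 (2.06 ± 0.343 TPM, SD, n = 2) was 10.3-fold below CHLA 04 (21.3 ± 4.53 TPM, SD, n = 2), from 19 and 32 reads.

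GRB10 (ENSG00000106070, chr7:50590063-50793462, minus strand), an adaptor protein that binds and dampens the insulin and IGF1 receptors, was highest in CHLA 05. It was at 1.68 TPM in CHLA 02, 8.66 and 11.1 TPM in CHLA 04, 29.4 TPM in CHLA 05, and 0.679 and 0.769 TPM in CHLA 06. CHLA 05 was thus 40.6-fold above CHLA 06 (0.724 ± 0.0631 TPM, SD, n = 2), whose exact Poisson intervals reached no higher than 1.16 TPM per library. Transcripts that begin within 500 bases downstream of the window printed above, or at its edge, summed to 11.4 TPM in CHLA 05, of which ENST00000335866 had 8.56 TPM, and to 2.38 TPM or less in each other library. Of 23 annotated transcripts, 8 reached 1 TPM in a library, and all 8 had their highest level in CHLA 05 except ENST00000483819, which had 2.88 TPM in the first replicate of CHLA 04 and 2.80 TPM in CHLA 05.

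PLAGL1 (ENSG00000118495, chr6:143940300-144064599, minus strand), a zinc finger factor with antiproliferative activity, did not follow the same order. Its level was 32.1 TPM in CHLA 02, 18.7 and 13.9 TPM in CHLA 04, 150.1 TPM in CHLA 05, and 45.5 and 42.6 TPM in CHLA 06. CHLA 05 was 9.21-fold above CHLA 04 (16.3 ± 3.42 TPM, SD, n = 2), and CHLA 06 was above CHLA 02 and CHLA 04 although it was lowest in CDKN1C and GRB10. Transcripts that begin in or near the internal window printed above summed to 20.7 TPM in CHLA 05, against 5.91 TPM in CHLA 02, 6.65 and 3.47 TPM in CHLA 04, and 10.2 and 11.8 TPM in CHLA 06. ENST00000392307, which begins downstream at chr6:143968838 and is 6296 bases long, carried 62.1 of the 150.1 TPM in CHLA 05.

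DLK1 and MEG3 both had their lowest line mean in CHLA 04, by very different margins. DLK1 (ENSG00000185559, chr14:100725705-100738224, plus strand) encodes a membrane protein of the Notch ligand family that is known to hold back differentiation. It was at 58.3 TPM in CHLA 02, 69.6 TPM in CHLA 05, and 64.7 and 94.7 TPM in CHLA 06, but each library of CHLA 04 had 1 read (0.179 and 0.0307 TPM). CHLA 06 was 762-fold above CHLA 04, with an interval of 211 to 6289 from the 2 reads of CHLA 04. CHLA 02, CHLA 05 and CHLA 06 spanned 0.41 in log2(TPM + 2), less than the gap of 0.53 between the replicates of CHLA 06.

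MEG3 (ENSG00000214548, chr14:100779410-100861031, plus strand), a long non-coding RNA of the same cluster, was above 88.6% or more of the detected genes in each of the 6 libraries. It was at 338 TPM in CHLA 02, 217 and 101 TPM in CHLA 04, 351 TPM in CHLA 05, and 386 and 354 TPM in CHLA 06. CHLA 04 was lowest, but its replicates differed by 1.09 in log2(TPM + 2), nearly as much as the span of 1.31 between CHLA 04 and CHLA 06. Transcripts from the start printed above held 56.1% to 61.4% of MEG3 in every library. Of these, ENST00000452120 was the most abundant, with 134 TPM in CHLA 02, 46.5 and 29.3 TPM in CHLA 04, 126 TPM in CHLA 05, and 166 and 154 TPM in CHLA 06.

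Other genes of the cluster on the lists also had their lowest line mean in CHLA 04, by different margins. RTL1, a retrotransposon-derived gene known to be read from the paternal copy as DLK1 is, had 0 and 2 reads in CHLA 04, against 0.998 TPM in CHLA 02, 3.87 TPM in CHLA 05, and 3.91 and 2.21 TPM in CHLA 06. The non-coding MEG8, known to be read from the maternal copy, was at 10.2 TPM in CHLA 02, 10.5 and 6.60 TPM in CHLA 04, 22.7 TPM in CHLA 05, and 18.6 and 15.4 TPM in CHLA 06. MEG9, also non-coding, was at 2.20 and 3.35 TPM in CHLA 04 and at 3.79 to 6.63 TPM in the other lines. DIO3 and its non-coding antisense partner DIO3OS, at the far end of the cluster, were under a mean of 1 TPM. In CHLA 04, DIO3 had 0 and 5 reads and DIO3OS had 0 and 1, while CHLA 02 had 4 of DIO3 and 5 of DIO3OS. Each library of CHLA 05 and CHLA 06 had 14 or more reads of DIO3 and 11 or more of DIO3OS. The second replicate of CHLA 04 was above CHLA 02 in DIO3 (0.345 against 0.285 TPM). In CHLA 04, DLK1, RTL1 and DIO3OS thus had at most 2 reads per library and DIO3 at most 5, while MEG3, MEG8 and MEG9 had 29 or more.

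**Figure D2:**
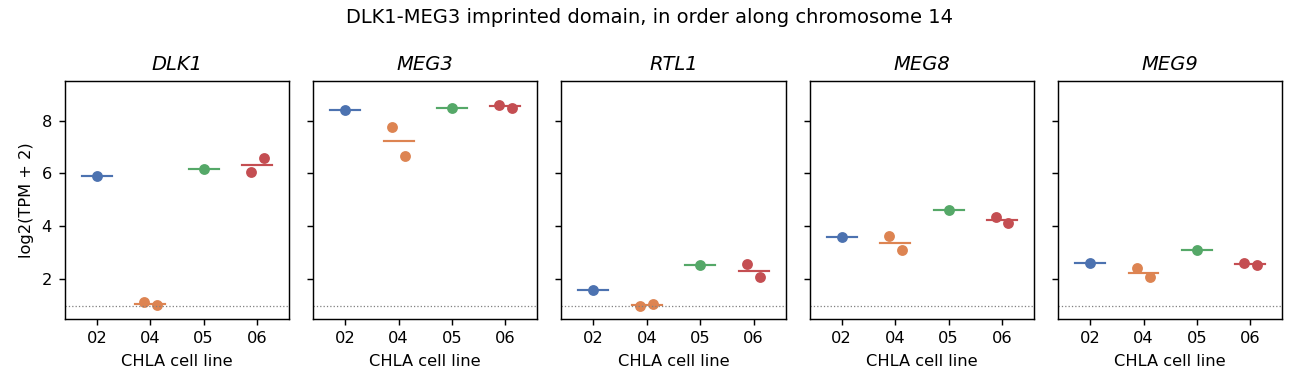
DLK1, MEG3, RTL1, MEG8 and MEG9 in their order on chromosome 14. The y axis is log2(TPM + 2), points are libraries, short lines are means of a cell line and the dotted line is 0 TPM. In CHLA 04, DLK1 and RTL1 lie on the dotted line, whereas MEG3 is at 217 and 101 TPM.

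H19 (ENSG00000130600, chr11:1995163-2001470, minus strand), the long non-coding RNA of the chromosome 11 cluster, and IGF2 (ENSG00000167244, chr11:2129112-2149603, minus strand), its fetal growth factor, were low in every library and did not pass the minimum of a mean of 1 TPM. H19 was at 1.30 TPM in CHLA 02, 0.685 and 0.363 TPM in CHLA 04, 1.73 TPM in CHLA 05, and 0.113 and 0.162 TPM in CHLA 06, from 2 to 16 reads. IGF2 was at 0.365 TPM in CHLA 02, 0.316 and 0.371 TPM in CHLA 04, 1.99 TPM in CHLA 05, and 0.634 and 1.69 TPM in CHLA 06, from 6 to 50 reads. No transcript of either gene reached 1 TPM in a library. Lines spanned 0.80 for H19 and 0.77 for IGF2 in log2(TPM + 2), and for IGF2 the replicates of CHLA 06 already differed by 0.49. The exact Poisson interval of IGF2 in CHLA 05 (1.31 to 2.90 TPM) lay above those of CHLA 02 and CHLA 04, while CHLA 02 and CHLA 04 could not be told apart at this depth, nor could CHLA 05 and the second replicate of CHLA 06. INS-IGF2, a readthrough gene that overlaps IGF2, stayed at a line mean of 0.270 TPM or less.

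In each pair of cell lines, a gene was called where the difference in log2(TPM + 2) was 2 or more (4-fold), among the 14827 genes with a mean of at least 1 TPM over the lines. Of the 8 members among them, 6 were called between CHLA 06 and CHLA 04, where 12.4% of all genes were. MEST, PEG3, NNAT, CDKN1C and GRB10 were lower in CHLA 06, a direction that 6.81% of all genes took, and DLK1 was higher. Between CHLA 06 and CHLA 05, 5 members were called (11.3% of all genes), and all 5 were the same ones as before and lower in CHLA 06 (6.97% of all genes). MEST and PEG3 were the 2 members called between CHLA 06 and CHLA 02 (3.37% of all genes), again lower in CHLA 06 (3.22% of all genes). CDKN1C (-1.94) was just short of the limit there. It was called with a pseudocount of 1 or 0.1 and without the second replicate of CHLA 06. The median difference of the 8 members was -2.31 against CHLA 04, -2.24 against CHLA 05 and -0.30 against CHLA 02, beside -0.19, -0.18 and -0.05 over all genes. The comparisons of CHLA 06 share its libraries, so these counts are not separate pieces of evidence.

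Between CHLA 04 and CHLA 02, 3 members were called (4.67% of all genes), of which NNAT and PEG3 were higher in CHLA 04 and DLK1 was lower. Between CHLA 05 and CHLA 02 it was also 3 (7.41% of all genes), and NNAT, GRB10 and PLAGL1 were higher in CHLA 05. The call of NNAT there (2.10) was lost with quantile normalization and by the most abundant transcript. Between CHLA 05 and CHLA 04 it was 2 (5.74% of all genes), DLK1 and PLAGL1, both higher in CHLA 05. MEG3 was called in no pair, although by its most abundant transcript it was called between CHLA 06 and CHLA 04. GRB10 was gained between CHLA 04 and CHLA 02 (1.68) with a pseudocount of 1 or 0.1. By the most abundant transcript it was gained between CHLA 05 and CHLA 04 (1.41). MEST was gained between CHLA 04 and CHLA 02 (1.31) with quantile normalization. Without CHLA 02, the 3 pairs left had 6, 5 and 2 members called, as before, of 9 above the minimum. Differences in these pairs do not involve CHLA 02, so only the genes passing the minimum could change. GRB10 between CHLA 06 and CHLA 04 was close to the limit at -2.12, and it was no longer called with median-of-ratios scaling, with quantile normalization, by the most abundant transcript or without the second replicate of CHLA 04. CDKN1C between CHLA 06 and CHLA 05 (-2.23) was lost with quantile normalization and by the most abundant transcript, which also ended its call against CHLA 04 and that of NNAT between CHLA 06 and CHLA 05.

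**Figure D3:**
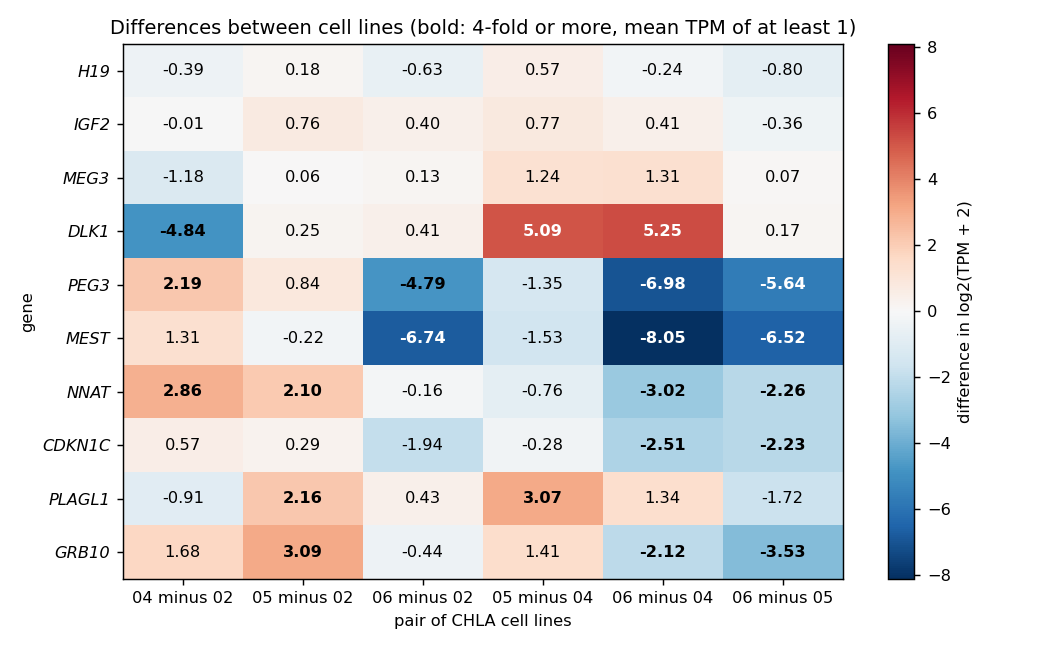
Difference in log2(TPM + 2) between each pair of cell lines for the 10 members, with the first-named line minus the second. Blue is lower and red is higher in the first-named line, and bold marks 4-fold or more among genes with a mean of at least 1 TPM. The deepest blue cell is MEST in CHLA 06 minus CHLA 04 at -8.05.

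Other imprinted genes were taken from a list of 55 names, of which 52 were found as 53 identifiers. Of these identifiers 40 passed the minimum, with SNURF counted under both of its identifiers. Whether each listed gene is imprinted in these cells was not measured. Between CHLA 06 and CHLA 04, 10 of the 40 were called, with 7 lower in CHLA 06 (ZDBF2, ZIM2, MAGEL2, PEG10, GPR1, SNRPN and TP73) and 3 higher (NLRP2, DIRAS3 and ERAP2), where 12.4% of all genes were called. ZIM2 shares reads with PEG3 and adds no separate gene to the 7. Between CHLA 06 and CHLA 05 it was also 10 (11.3% of all genes), and between CHLA 06 and CHLA 02 it was 5 (3.37% of all genes). In the pairs without CHLA 06 it was 2 for CHLA 04 against CHLA 02 (4.67% of all genes), 5 for CHLA 05 against CHLA 02 (7.41%) and 3 for CHLA 05 against CHLA 04 (5.74%), the first and the last being near the share of all genes. The median difference over the 40 was -0.55 between CHLA 06 and CHLA 04. ZDBF2, a zinc finger gene read from the paternal copy, was at 81.6 TPM in CHLA 02, 196 and 216 TPM in CHLA 04, 85.7 TPM in CHLA 05, and 0.398 and 0.405 TPM in CHLA 06. PEG10, a retrotransposon-derived gene, was still at 85.0 and 93.7 TPM in CHLA 06, against 417 TPM or more in the other libraries. DIRAS3, a small GTPase that restrains growth, went the other way, with 42.9 TPM in CHLA 02 and 109 and 120 TPM in CHLA 06 but 0.290 TPM or less in CHLA 04 and CHLA 05. A low level in CHLA 06 was not common to all imprinted genes on the list, as NDN, SGCE, GNAS and UBE3A were within 1.71-fold over the 4 lines.

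The IGF pathway, on which IGF2 and GRB10 act, was described by 19 genes, of which 14 passed. Between CHLA 06 and CHLA 04, 9 of the 14 were called (12.4% of all genes), and 9 between CHLA 06 and CHLA 05 (11.3% of all genes), in both directions. The receptor IGF1R was at 160 TPM in CHLA 02, 82.1 and 86.6 TPM in CHLA 04, 147 TPM in CHLA 05, and 532 and 338 TPM in CHLA 06. IGF2R, which clears IGF2 from the cell surface, was at 49.3 to 75.8 TPM in all 6 libraries. The adaptor IRS2 was at 32.2 TPM in CHLA 02, 104 and 63.6 TPM in CHLA 04 and 126 TPM in CHLA 05, but at 0.0476 and 0.158 TPM in CHLA 06. Of the binding proteins, IGFBP2, IGFBP4 and IGFBP5 were lower in CHLA 06 than in CHLA 04 and CHLA 05, and IGFBP6 was higher. IGF2BP1, an RNA-binding protein named for its binding of IGF2 mRNA, had 118 and 114 TPM in CHLA 06 and 48.9 TPM in CHLA 02 against 0.0185 TPM or less in CHLA 04 and CHLA 05. IGF1, the other ligand of the pathway, did not exceed 0.187 TPM in any line.

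Of 18 genes that set or keep imprints 14 passed, and the only call in any pair, beside 12.4% of all genes in that pair, was TET3, a dioxygenase that removes DNA methylation, between CHLA 06 (9.86 ± 0.210 TPM, SD, n = 2) and CHLA 04 (59.3 ± 22.1 TPM, SD, n = 2). DNMT1, which copies DNA methylation at replication, was at 170 TPM in CHLA 02, 344 ± 6.20 TPM in CHLA 04, 305 TPM in CHLA 05 and 176 ± 29.3 TPM in CHLA 06 (SD, n = 2). CTCF, the boundary factor of the H19 and IGF2 cluster, spanned 1.59-fold over the lines, and TRIM28, the partner of ZFP57, spanned 1.88-fold. ZNF445, on the same list as ZFP57, had line means of 33.0 TPM in CHLA 02, 52.6 TPM in CHLA 04, 39.0 TPM in CHLA 05 and 28.5 TPM in CHLA 06.

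A second mapping, against LTR (long terminal repeat) elements, gave a readout other than the transcript TPM, although it came from the same libraries. Reads on a part of an element in annotated exons, as in PEG3, can be counted in both. PEG3 holds 1 such element, an MLT1O on the minus strand at chr19:56833345-56833537 with 76 bases in annotated exons. It had 75 reads in CHLA 02 and 79 in CHLA 05, with 168 and 221 in the replicates of CHLA 04 and 0 in both libraries of CHLA 06, where 116 and 142 reads were on the PEG3 transcripts. The 26 elements within PLAGL1 are outside its exons where they had reads, and their sum was 43 reads in CHLA 05, 17 in each library of CHLA 06, 12 in CHLA 02, and 3 and 5 in CHLA 04. Most of these were on an intronic MLT1A0 at chr6:143988605-143988956. The 20 elements within GRB10 summed to 52 reads in CHLA 05, to 8 and 17 reads in CHLA 04, and to 3 reads or fewer in each other library. In all 3 genes the cell line with the most element reads per library was the line with the highest TPM. H19, IGF2, DLK1, MEST, NNAT and CDKN1C hold no LTR element, and the 1 element in MEG3 had no read.

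**Figure D4:**
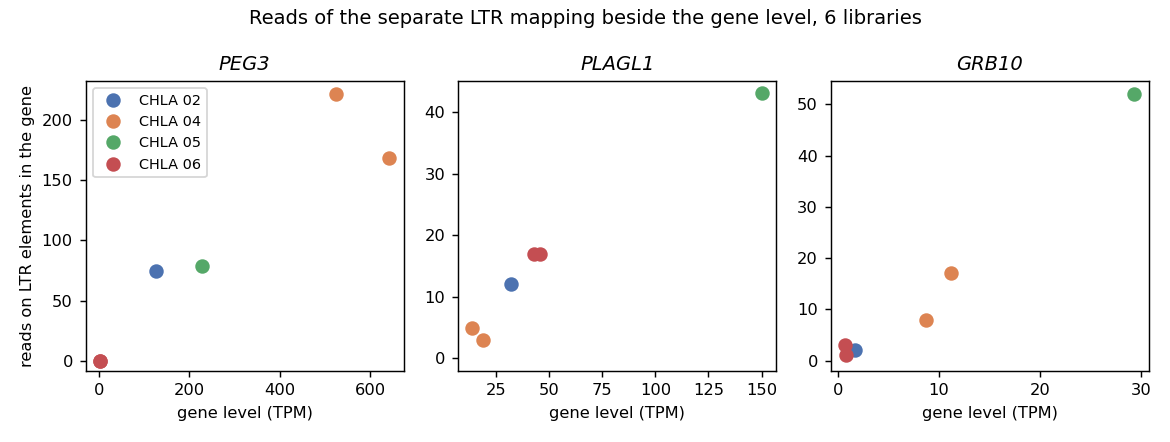
Reads on LTR elements inside PEG3, PLAGL1 and GRB10 (y axis, from the mapping against LTR elements) beside the TPM of the gene (x axis, from the mapping against transcripts) in the 6 libraries, colored by cell line. The points of CHLA 06 overlap at 0 reads in PEG3, and CHLA 05 is highest in PLAGL1 and GRB10 with 43 and 52 reads.

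The low and high levels were compared with the genes around the members. These were genes within 1 Mb that passed the minimum, apart from members and the list of other imprinted genes above. They were not checked further for imprinting. For each, the level in a cell line was set against the mean of the other 3 lines in log2(TPM + 2). In CHLA 06, MEST was at -7.10 while 13 neighbours had a median of -0.15 and a lowest value of -1.71 (PODXL). PEG3 was at -5.80 while 50 neighbours, many of them zinc finger genes, had a median of -0.33 and a lowest value of -1.27. CDKN1C was at -2.23, and its 13 neighbours reached no lower than -0.99. NNAT was at -1.81, and the lowest of its 25 neighbours was at -1.53. In CHLA 04, DLK1 was at -5.06, and 12 neighbours had a median of -0.62 and a lowest value of -1.83 (BEGAIN). These 5 genes were lower than each of their neighbours measured, in cell lines chosen because the member was lowest there. On this scale a neighbour of few TPM could not fall as far as MEST or PEG3, whatever its change. In contrast, the values of GRB10 in CHLA 06 (-2.03) and PLAGL1 in CHLA 05 (2.32) were within the range of their 2 and 9 neighbours, with COBL at -2.23 and UTRN at 2.53. MEG3 in CHLA 04 (-1.24) was also within the range of its neighbours, with BEGAIN at -1.83. H19 and IGF2, under the minimum, were not compared here.

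**Figure D5:**
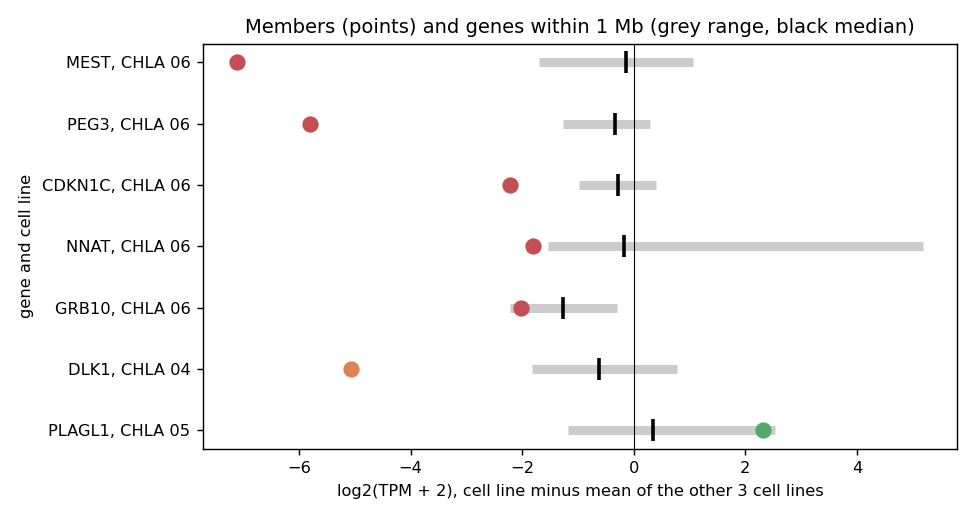
Members (points, colored by cell line) and the genes within 1 Mb of them (grey bar from lowest to highest, black mark at the median). The x axis is log2(TPM + 2) in the named cell line minus the mean of the other 3 lines. The points of MEST, PEG3, CDKN1C, NNAT and DLK1 lie left of the grey bars, and those of GRB10 and PLAGL1 lie within them.

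The genes most like each member were found by the distance of log2(TPM + 2) over the 6 libraries. For MEST they were TFRC and TMSB4X, both at a distance of 3.15, so no gene was close. TMSB4X was at 3.09 and 2.02 TPM in CHLA 06 against 897 TPM or more in the other libraries. PEG3 was followed by FRMD4A at 0.68, with 152 TPM in CHLA 02, 552 and 391 TPM in CHLA 04, 184 TPM in CHLA 05, and 2.43 and 1.93 TPM in CHLA 06, and by FGFBP3 at 0.96. DLK1 was nearest to KDELR3 (1.17) and PLP2 (1.40), both at 0 TPM in CHLA 04. The remaining pairs were NEAT1 and MCL1 for MEG3, CTD-3162L10.1 and HGFAC for NNAT, SYNGR1 and TUBB4A for CDKN1C, MXRA7 and INTU for PLAGL1, and CDH2 and PDGFA for GRB10. CDKN1C and SYNGR1 were the closest of all, at 0.44. With 4 cell lines behind the 6 libraries, such likeness is a description of these lines.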

How the data were processed

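Total RNA of 4 established cell lines was sequenced as paired-end reads of 125 bp after a stranded total RNA preparation. The authors demultiplexed with CASAVA 1.8.2 (submitters' processing notes), trimmed with Trimmomatic, mapped to GRCh38 with Ensembl release 82 in the CLCbio Genomics Workbench at default settings, and deposited TPM per transcript and, from a separate mapping, TPM per LTR element scaled over LTR elements alone. Versions of the other programs are not given in the sources used here. No columns of fold changes or p-values were in the files.

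The deposited TPM values were summed per gene identifier. Reads were recovered from TPM times transcript length as multiples of the step of 1 read, and at least 99.8% of values were whole within 0.1 of a read. The libraries held 10265899 to 20520229 reads on transcripts and 355302 to 511408 reads on LTR elements. Intervals are exact Poisson intervals at the 95% level and cover counting error only. Levels were compared as log2(TPM + 2), the pseudocount of the study, as the mean of log2 values over technical replicates; it understates changes of low genes. A call was a difference of 2 or more among genes with a mean of at least 1 TPM over the lines, without a p-value. The recovery and the call rule were tested on simulated data. Starts within 500 bases formed 1 start group. Technical replicates of all genes above the minimum correlated at 0.972 (CHLA 04) and 0.989 (CHLA 06) across genes, and libraries of different lines at 0.682 to 0.911; genes are not independent replicates.

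Named genes were all 10 members, with transcripts taken from those of at least 1 TPM, and the 2 genes nearest to each member of at least 1 TPM; from the lists, any gene called could be named, or otherwise up to 6 per list by mean TPM, and not all of these are printed. MESTIT1, INS-IGF2, ZFP57, ZNF445, IGF1, RTL1, MEG8, MEG9, DIO3, DIO3OS, SNURF, BLCAP, the markers and the neighbours are named outside this rule, after their values were seen. The members and the lists were chosen with earlier results of these data known. Alternatives were other pseudocounts, quantile normalization, median-of-ratios scaling, no minimum, the most abundant transcript, the highest technical replicate and leaving out technical replicates. Leaving out CHLA 02 was chosen after seeing the data. Python 3.11.15 with pandas 2.3.3, numpy 2.4.6 and scipy 1.17.1 was used.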

Additional observations from a re-analysis of the deposited data

How the results depend on the processing

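No paired analysis was possible because the results come from no test and the replicate numbers mark technical replicates of 1 cell line. Of 66 counts of members under the alternatives, 65 stayed within 1.5 times the reported count. The exception was CHLA 06 against CHLA 05 by the most abundant transcript, with 3 members called in place of 5, as CDKN1C and NNAT dropped out. Some of the counts and spans given here could hardly change. Leaving out a replicate alters no difference in pairs without its line, and dropping the minimum alters no difference at all. Of 66 counts of other imprinted genes, 60 stayed within that limit. CHLA 04 against CHLA 02 went from 2 to 4 with a pseudocount of 1, 7 with 0.1, and 4 by the highest technical replicate; with 1 replicate of CHLA 04 or CHLA 06 left out it ranged from 2 to 4, the 4 being without the first replicate of CHLA 04. CHLA 05 against CHLA 04 went from 3 to 5 with a pseudocount of 1 and to 6 with 0.1. The cause was not tested. Leaving out CHLA 02 changed no count of the pairs left, but it could only change which genes passed the minimum and no difference between lines. Of the 21 member calls, 16 to 21 were kept under each alternative. Of 110 spans, 24 moved by more than the technical spread and none changed direction. The span of MEST ranged from 7.77 to 8.55, that of PEG3 from 6.47 to 7.75 and that of PLAGL1 from 2.88 to 3.41. Those of NNAT (2.41 to 7.15) and DLK1 (4.99 to 8.68) ranged more widely and depended on the pseudocount. So did those of GRB10 (2.36 to 5.16), CDKN1C (1.70 to 3.30), H19 (0.197 to 2.95) and IGF2 (0.578 to 2.24). Median-of-ratios scaling moved the median of all genes between CHLA 06 and CHLA 04 from -0.19 to 0.01, and 20 of the 21 member calls were kept under it. With a pseudocount of 0.1 the count of all genes called went from 693 to 1499 (CHLA 04 against CHLA 02), 1098 to 1944 (CHLA 05 against CHLA 02), 499 to 1165 (CHLA 06 against CHLA 02), 851 to 1629 (CHLA 05 against CHLA 04), 1833 to 3110 (CHLA 06 against CHLA 04) and 1680 to 2813 (CHLA 06 against CHLA 05). Depth limits H19, IGF2, NNAT in CHLA 02 and CHLA 06, and DLK1 in CHLA 04.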
